A study of Sus scrofa with 12 samples.

Results

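The genes described here are the cytokines, chemokines and their receptors carried by the Affymetrix porcine array, read in liver RNA from 12 German Landrace pigs, which the labels call adults. They were chosen by name: a probe set belonged to the set where its single annotated symbol began with IL, CCL, CCR, CXCL, CXCR or TGFB followed by a digit, or with TNF or IFN. A gene with several such probe sets was represented by the one with the highest mean over the 12 arrays. The rule found 80 genes, covered by 99 probe sets, among the 6765 named genes and 23999 probe sets of the array. It also caught 4 TNFAIP genes, which are named for being induced by TNF and are not cytokines.

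The pigs were labelled by the strength of their stress response, low or high, and by their aggressiveness, low or high, with 3 animals in each of the 4 combinations and 1 array per animal. Each combination held 1 female and 2 males. How the traits were scored, the animals' exact ages and any treatment are not given in the labels. Groups are named below with the stress response first, so high-low 3 is the third animal with a high stress response and low aggressiveness. Values are probe set signals on a linear scale, scaled per array before deposit, and differences were fitted on log2(signal + 16). A signal depends on the probes as well as on the transcript, so levels of different genes are not ranked as abundances.

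Cytokines are small secreted proteins through which cells of the immune system and their neighbours signal, and chemokines are the cytokines that direct the migration of leukocytes. In the liver, resident macrophages (Kupffer cells), sinusoidal endothelial cells and lymphocytes are known sources, while hepatocytes carry receptors through which interleukin 1, interleukin 6, TNF and interferons act on them, for example to start the acute phase response. Many cytokine genes are transcribed at a high level only after activation of the cell. In RNA of whole tissue, fewer cells of a type and less RNA per cell cannot be told apart.

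The array data as a whole were even. The median signal per array lay between 92.7 and 117, and the median correlation of an array with the others was at least 0.954. High-high 3, low-high 3 and high-low 3 had the lowest such correlations, and values and counts that move by over 1.5 times without these 3 arrays are given with that value below. All 11 measured hepatocyte markers were detectable by the threshold described below. Among the markers of other cells, 7 of 8 genes of Kupffer cells and macrophages, 4 of 7 of sinusoidal endothelium and 4 of 8 of stellate cells were detectable, while 1 of 11 genes of T and NK cells (CD247), 1 of 8 of neutrophils (NCF1), 1 of 2 of B and plasma cells (JCHAIN) and none of 4 of cholangiocytes were. Of the T cell genes, CD3D passed on 2 arrays and CD8A on 3, and CD3E, CD3G, CD4 and CD8B on none.

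A signal was called detectable where it exceeded the 95th percentile, on the same array, of 54 probe sets of 40 genes that adult liver is not known to transcribe, such as those of muscle, brain, testis and pituitary. This threshold lay between 153 and 236. Of the 80 genes, 26 were detectable on at least 9 arrays, 17 of them on all 12, while 9 passed on 1 to 8 arrays and 45 on none. Over all 6765 named genes 61.7% were detectable, against 32.5% of the cytokine, chemokine and receptor genes. The number depended on where the threshold was set: 60 genes lay above the median of the same silent probe sets on at least 9 arrays and 9 above their 99th percentile. The upper percentiles rest on few probe sets, since MBP, with 2 probe sets above the threshold on all 12 arrays, and GHRHR, on 9, were themselves detectable. Without these 2 genes, an alternative chosen after seeing the data, the threshold lay between 79.5 and 118 and 36 genes were detectable. The threshold is a description of these arrays, and a gene below it is not shown to be silent. CCR1, at 8 arrays, and TNFAIP8L2, at 9, lay on either side of the limit.

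**Figure D1:**
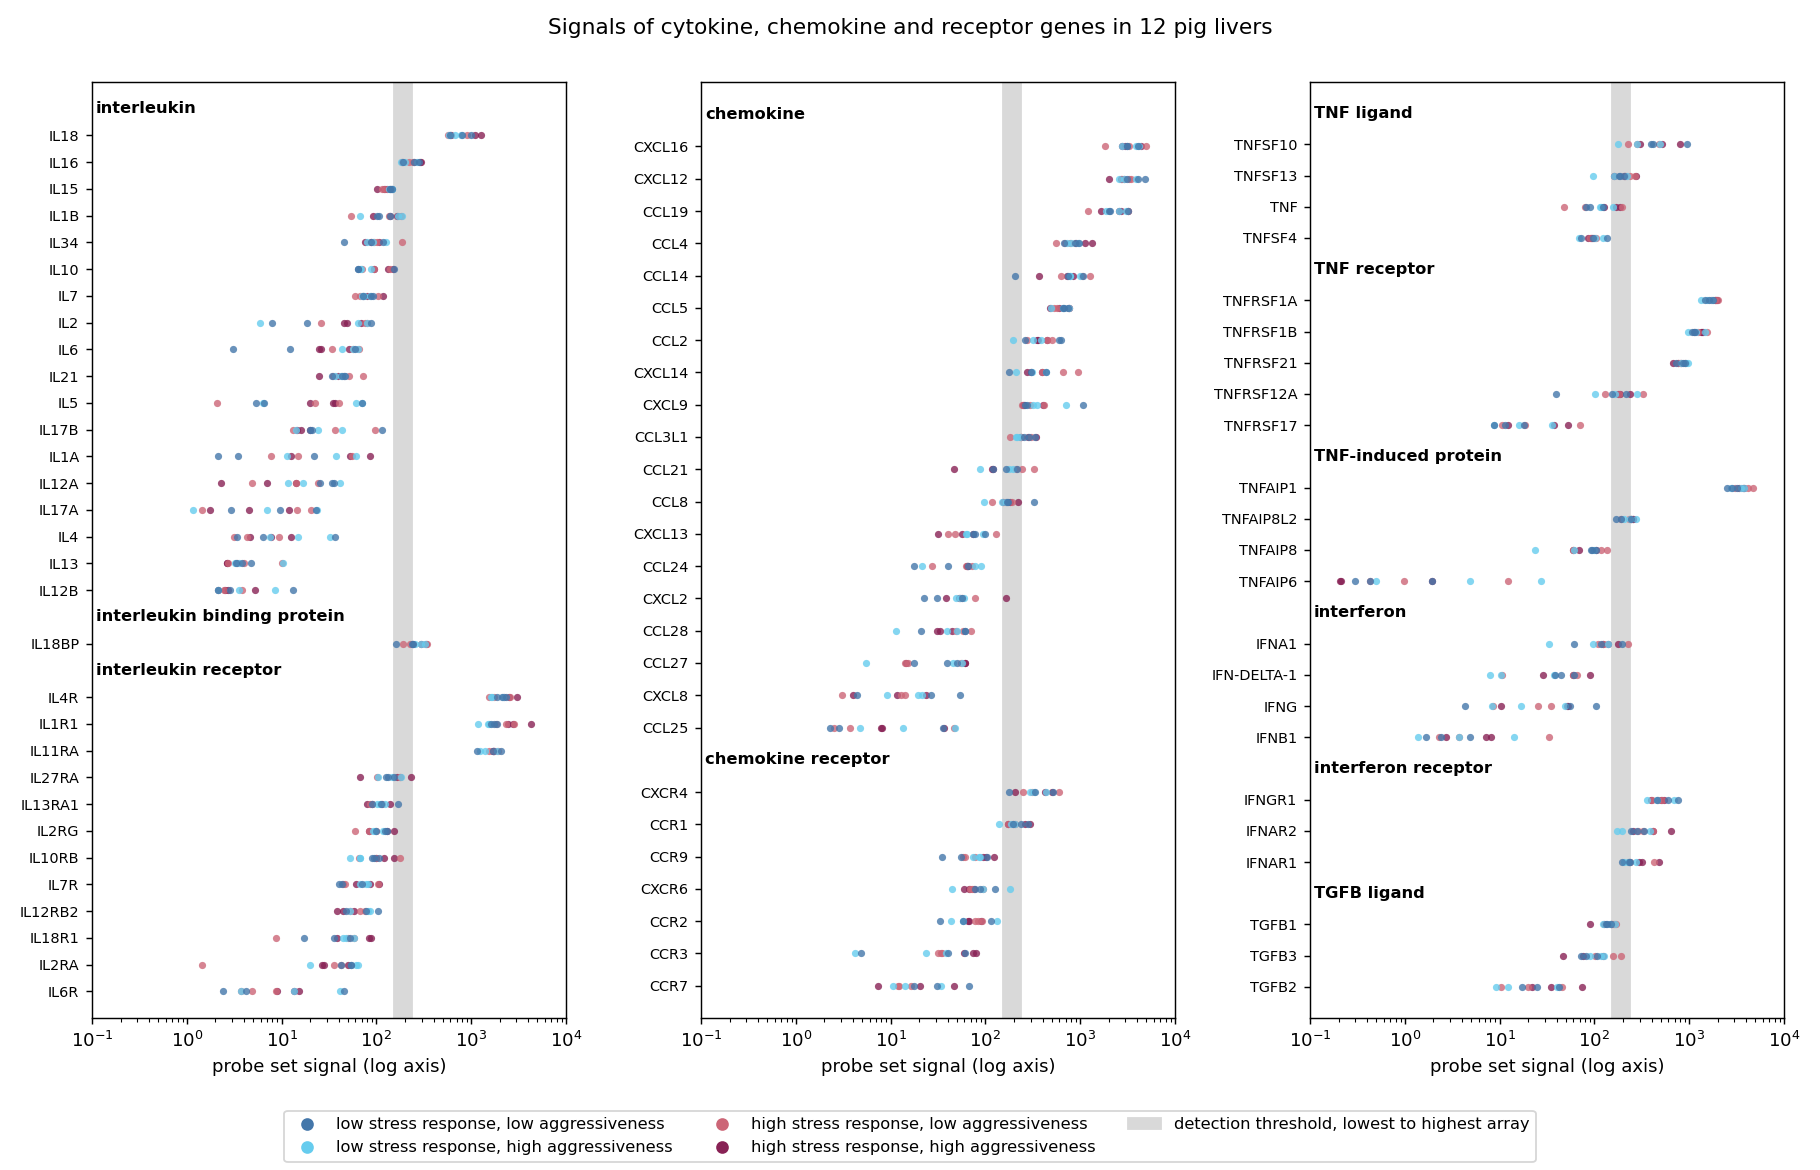
Signals of the 80 genes in each of the 12 livers on a logarithmic axis, ordered by role, with 1 point per animal coloured by group. The grey band spans the detection thresholds of the 12 arrays, from 153 to 236; all 3 interferon receptors and 10 of 19 chemokines exceeded the threshold of the same array on at least 9 arrays, against 2 of 18 interleukins.

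Secreted interleukins were mostly below the threshold. Of 18, IL18 and IL16 were detectable, IL1B passed on 2 arrays and 15 on none. Among these 15, IL15 had a median of 138, above the threshold of 79.5 to 118 that held without MBP and GHRHR. IL18, a cytokine of the interleukin 1 family that induces interferon gamma, had signals of 805, 598 and 1004 in low-low animals, 682, 776 and 587 in low-high, 570.4, 593 and 892 in high-low, and 608, 1096 and 1271 in high-high. The highest value belonged to high-high 3, and all 4 groups overlapped. IL18BP, the secreted protein that binds and neutralises IL18, was above the threshold on 10 arrays, with 236, 159 and 244 in low-low, 325, 292 and 258 in low-high, 343, 192 and 223 in high-low, and 332, 241 and 295 in high-high.

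IL1B, the inflammatory cytokine made by activated macrophages, was 106, 102 and 140.1 in low-low, 67.3, 184 and 167 in low-high, 54.1, 134 and 181 in high-low, and 164, 140.1 and 92.8 in high-high. It passed the threshold in low-high 2 and high-high 1. IL10, which restrains macrophages, ranged from 63.5 to 152 with a median of 90.5 and did not pass on any array. IL6, the main inducer of the acute phase response, ranged from 3.07 to 65.8 with a median of 47.3, and its probe set was too dim to be tested. By this threshold, none of these 3 genes passed in most animals. For IL1B that depended on the list: without MBP and GHRHR the threshold lay between 79.5 and 118, and the IL1B median was 137.

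Among 12 interleukin receptor genes, IL1R1, IL4R and IL11RA were detectable on all 12 arrays, IL27RA on 2 and the other 8 on none. IL4R, the receptor chain for interleukins 4 and 13, ranged from 1551 to 3062, and IL11RA, the receptor of interleukin 11, from 1153 to 2048. The probe set of IL6R, the ligand-binding chain of the interleukin 6 receptor, ranged from 2.39 to 45.9 and was not detected. IL6R is known to be transcribed in liver, and whether its probe set responds to the pig transcript was not tested.

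Chemokines were the class with the most detectable genes, 10 of 19. CXCL16, a membrane-bound chemokine that also acts as a scavenger receptor, was 3127, 4023 and 3136 in low-low, 4155, 3856 and 2728 in low-high, 3284, 4945 and 1827 in high-low, and 2744, 4370.1 and 2936 in high-high. Its highest and lowest values both fell in the high-low group. CCL19, which guides dendritic cells and T cells, was 3167, 2000.3 and 2053 in low-low, 3042, 1852 and 2569 in low-high, 3179, 1222 and 3212 in high-low, and 2713, 2555 and 1661 in high-high. The groups overlapped here too. CXCL12, which retains lymphocytes and progenitor cells in tissues, ranged from 2018 to 4853 and is described with aggressiveness below. CCL14, CCL2, CCL4, CCL5 and CXCL9 were also above the threshold on all 12 arrays, and CCL3L1 and CXCL14 on 11.

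CCL2, which attracts monocytes, was 625, 261 and 590.2 in low-low, 317, 194 and 382 in low-high, 501, 273 and 443 in high-low, and 353, 442 and 359 in high-high. The 4 groups overlapped. CXCL8, the neutrophil chemokine also called interleukin 8, ranged from 3.07 to 53.5 and was not detected. CXCL9, a chemokine induced by interferon gamma, had the most uneven signals of the detectable genes, with a coefficient of variation of 61.1% over the 12 animals. That spread came from low-low 3 at 1070.1 and low-high 3 at 708, while the other 10 animals lay between 245 and 415.

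Of 7 chemokine receptors, CXCR4, the receptor of CXCL12, was detectable on 10 arrays and CCR1 on 8, and CCR2, CCR3, CCR7, CCR9 and CXCR6 on none. These receptors are carried mainly by leukocytes.

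In the TNF family, the receptor genes TNFRSF1A, TNFRSF1B and TNFRSF21 were detectable on all 12 arrays and were the steadiest of the detectable genes, with coefficients of variation of 12.4%, 13.6% and 10.6%. Of the ligands, TNFSF10, which triggers cell death through its receptors, was detectable on 11 arrays with signals from 176 to 945. TNF itself passed on 2 arrays, TNFSF13 on 6 and TNFSF4 on none. TNFAIP1, a gene induced by TNF whose product is an adaptor of ubiquitin ligases, was detectable on all 12 arrays. Its signals were 2829, 3194 and 2475 in low-low, 3814, 3493 and 2755 in low-high, 4188, 3046 and 4707 in high-low, and 3345, 3765 and 3712 in high-high, with overlap between all groups except low-low and high-high. The share of all probe sets with such a separation is not given here.

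All 3 interferon receptor genes were detectable, and none of the 4 interferon genes. IFNGR1, the ligand-binding chain of the interferon gamma receptor, was 459, 597 and 766 in low-low, 362, 452 and 687 in low-high, 472, 404 and 513 in high-low, and 508, 394 and 545 in high-high. IFNG ranged from 4.29 to 105 and was not detected. IFNA1 passed on 1 array, and it belongs to a family of near-identical genes that a probe set may not separate. Of the TGFB ligands, which restrain immune cells and drive fibrosis, TGFB1 ranged from 89.8 to 167 and, by the chosen probe sets, TGFB1, TGFB2 and TGFB3 were not detected. For TGFB1 that depended on the list, as for IL1B. Its median was 147, and the threshold without MBP and GHRHR lay between 79.5 and 118.

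Of the 80 genes, 58 were bright enough to be tested between groups, the 26 detectable genes and 32 others. No gene of the set passed an adjusted p under 0.05 in limma for stress response, aggressiveness, their interaction or the comparison of all 4 groups. The background was the same, since 0% of the 15999 probe sets tested passed in any of the 4 comparisons. The smallest adjusted p among the 58 genes was 0.523 for stress response, 1.00 for aggressiveness, 0.999 for the interaction and 0.995 for the 4 groups. The values below are therefore given as measured differences, and none of them is a call.

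For stress response, 4 of the 58 genes had an unadjusted p under 0.05, and all 4 are receptor genes with higher signals in animals with a high stress response: IL1R1, IFNAR1, TNFRSF1A and IFNAR2. The background at this threshold was 8.16% of all probe sets tested, 5.03% on the higher side and 3.13% on the lower. The share of the set was 6.90%, below the 8.16% for both sides and above the 5.03% for the higher side. All 4 were among the 26 detectable genes, a share of 15.4%, while the background covers dim probe sets as well. A share over detectable probe sets alone is not given here. With the lowest 50% of probe sets left out, 1158 of 11999 had an unadjusted p under 0.05 in limma. Whether these shares differ from the background was not tested. The median log2 difference was 0.11 over the 58 genes, with 41 above 0, and 0.03 over all 15999, with 55.7% above 0. Without low-high 3 or without high-high 3, 2 genes had an unadjusted p under 0.05, and without high-low 2 there were 7. Without the 3 arrays that stood apart there were 3, of which IL1R1 is the only one among these 4. The number over all 15999 probe sets moved too, from 1305 in the main fit. It was 1079 without low-high 3, 926 without high-high 3, 1442 without high-low 2 and 734 without the 3 arrays.

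IL1R1, the receptor that binds interleukin 1 and starts its signal, had the smallest p. Its signals were 1618, 1736 and 1851 in low-low animals, 1512, 1556 and 1176 in low-high, 2859, 1837 and 2320.4 in high-low, and 2449, 2787 and 4260.0 in high-high. High-low 2, at 1837, was the one animal of a high stress response that did not exceed every animal of a low one. Means were 2752 ± 825 (SD, n = 6) with a high and 1575 ± 231 (SD, n = 6) with a low stress response. The log2 difference was 0.76 with a standard error of 0.19 and a 95% interval from 0.35 to 1.18 (limma, unadjusted p = 0.00195, adjusted p = 0.523). Among males alone it was 0.48, and without the 3 arrays named above 0.55. The other probe set of IL1R1 had signals of 22.9 to 110.02, was not detected on any array, and gave a log2 signal difference of 0.30.

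TNFRSF1A, the receptor of TNF found on most cells, was 1779, 1608 and 1457 in low-low, 1743, 1539 and 1347 in low-high, 1882, 1682 and 2027 in high-low, and 1891, 1934 and 1962 in high-high. The difference was small against a narrow spread, and the 6 animals with a high stress response lay between 1682 and 2027 against 1347 to 1779. The log2 difference was 0.27 with a standard error of 0.11 (limma, unadjusted p = 0.0371, adjusted p = 0.581). It was 0.16 without the 3 arrays.

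IFNAR1 and IFNAR2 encode the 2 chains of the receptor for type I interferons. IFNAR1 was 231, 197 and 236 in low-low, 278, 206 and 227 in low-high, 232, 236 and 425 in high-low, and 295, 314 and 476 in high-high. High-high 3 and high-low 3 were the highest, and 2 of the 6 animals with a high stress response, high-low 1 and high-low 2, lay within the range of the low ones. The log2 difference was 0.45 with a standard error of 0.18 (limma, unadjusted p = 0.0285, adjusted p = 0.572), and it was 0.19 without the 3 arrays.

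IFNAR2 was 336, 245 and 278 in low-low, 172, 194 and 386 in low-high, 287, 324 and 415 in high-low, and 255, 413 and 648 in high-high. The groups overlapped, with high-high 3 the highest of the 12 animals. The log2 difference was 0.50 with a standard error of 0.22 (limma, unadjusted p = 0.0399, adjusted p = 0.586). The other probe set of IFNAR2 was not detected on any array and was too dim to be tested in the set of 15999.

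**Figure D2:**
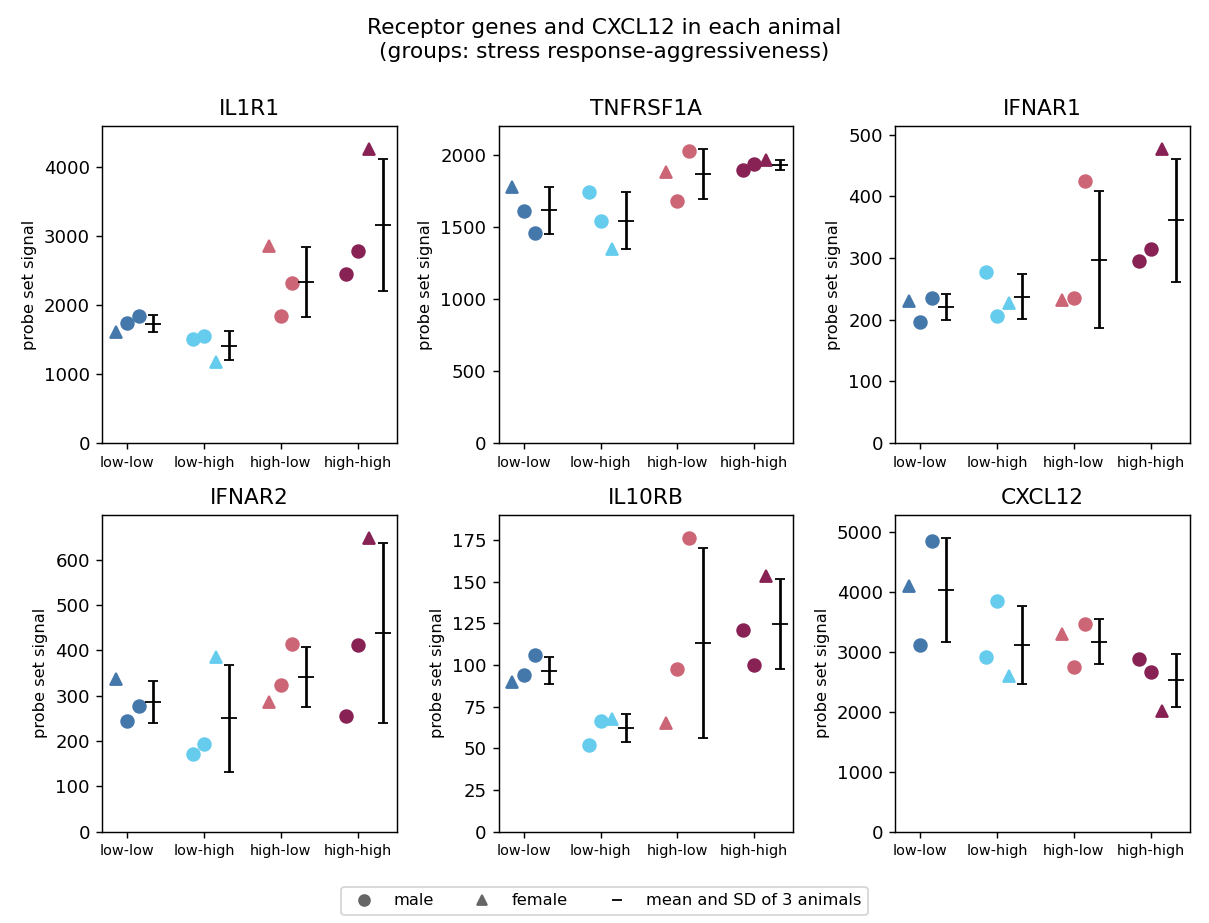
Probe set signals of 5 receptor genes and CXCL12 in each animal, from 0 on a linear axis, with circles for males and triangles for females and the mean and SD of the 3 animals of each group beside them. For IL1R1 the high-high animals reached from 2449 to 4260.0 and the low-high animals from 1176 to 1556.

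In the pig genome assembly Sscrofa11.1 as annotated by RefSeq, IFNAR2, IL10RB and IFNAR1 follow each other with no gene between them. IL10RB encodes the receptor chain shared by interleukin 10, interleukin 22 and type III interferons. Its probe set was not detected on any array, so its value is a difference between signals below the detection threshold. The signals were 89.9, 94.2 and 106 in low-low, 52.3, 66.6 and 67.7 in low-high, 65.6, 97.9 and 176 in high-low, and 121, 99.8 and 154 in high-high. The log2 signal difference for stress response was 0.47 with a standard error of 0.22 (limma, unadjusted p = 0.0532, adjusted p = 0.616), and 0.25 without the 3 arrays.

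The 3 adjacent receptor genes thus had log2 differences between 0.45 and 0.50. All 3 were among the 5 genes of the set with the smallest p for stress response. They were therefore picked for their differences, while the genes around them were not. The array named 9 other genes among the 8 genes on each side of the cluster, and 7 of these were tested. Their log2 differences for stress response ran from -0.11 for CRYZL1 to 0.33 for GART and, for a probe set not detected on any array, 0.34 for C13H21orf62. None of the 7 had an adjusted p under 0.05 or an unadjusted p under 0.05, and whether the 3 receptor genes differ from these neighbours was not tested.

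**Figure D3:**
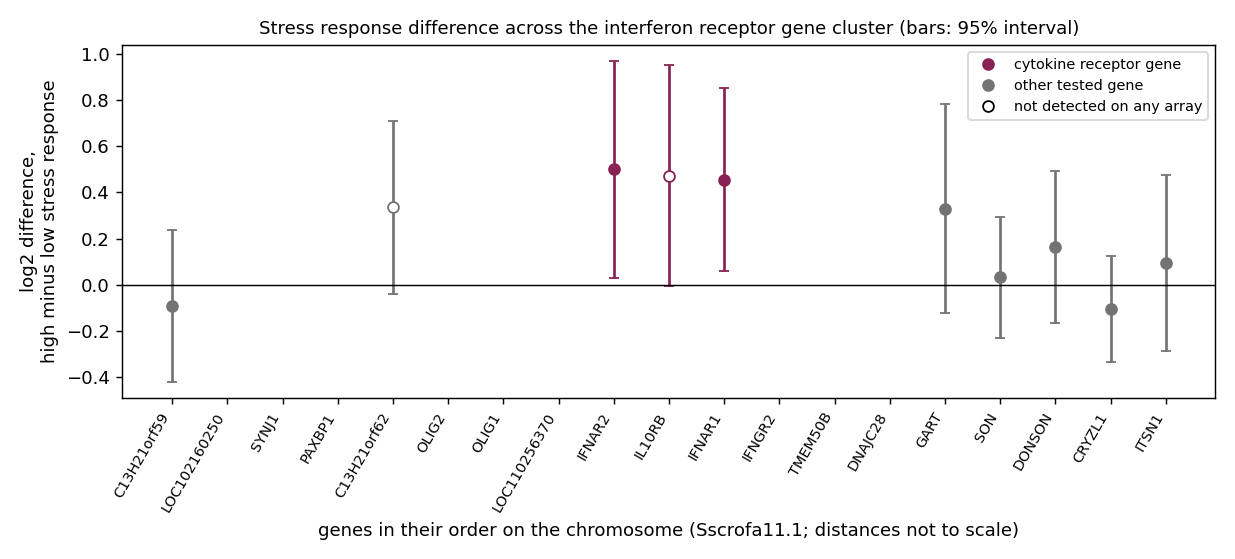
Log2 differences between high and low stress response, with 95% intervals, for the genes around IFNAR2, IL10RB and IFNAR1 in their order along the chromosome; open circles were not detected on any array, and genes without a point were not tested or not named on the array. The 3 receptor genes, picked for their small p in this comparison, lie between 0.45 and 0.50, with intervals that overlap those of the neighbours.

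The precision of these arrays is set by 6 animals per level. For 22 of the 26 detectable genes, the 95% interval of the stress response difference lay within a 2-fold change in either direction, which also held for 89.6% of all probe sets tested. The 4 exceptions were CCL14, CXCL14, CXCL9 and IL1R1. No gene of the set separated the 6 animals of one level from the 6 of the other without overlap, which 0.538% of all probe sets tested did.

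No marker list of another cell type had a gene with an adjusted p under 0.05. The summed signal of the 8 measured Kupffer cell and macrophage genes ran from 29667 to 38386 with a high and from 28475 to 36507 with a low stress response. Of these genes, CD163 had a log2 difference of 0.57 (unadjusted p = 0.008 in limma) and MARCO, not detected on any array, one of -0.78 (unadjusted p = 0.009). The mean log2 ratio of the 3' to the 5' control probe sets, a sign of RNA quality, was 2.22 ± 0.139 (SD, n = 6) with a high and 2.25 ± 0.0944 (SD, n = 6) with a low stress response (exact permutation test, two-sided, p = 0.630; adjusted over 8 such tests, 0.816). With that ratio in the model, the log2 difference of IL1R1 was 0.72. The part of these markers in the receptor values was not tested.

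**Figure D4:**
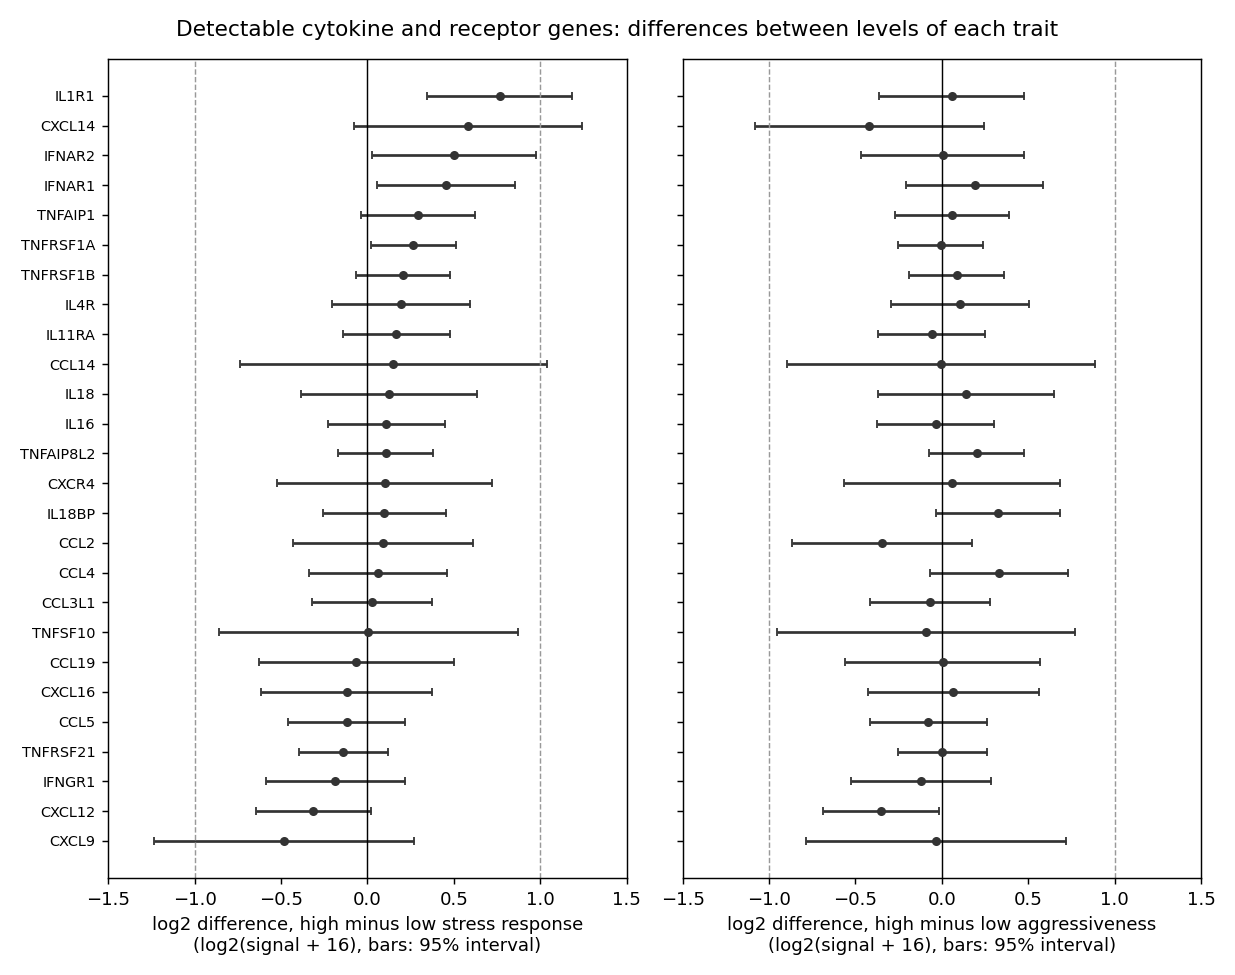
Log2 differences with 95% intervals of the 26 detectable genes, high minus low stress response on the left and high minus low aggressiveness on the right, ordered by the stress response value; dashed lines mark a 2-fold change. For stress response 22 of the 26 intervals lie within these lines and for aggressiveness 25.

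For aggressiveness, 3 of the 58 genes had an unadjusted p under 0.05, against a background of 3.22% of all probe sets tested. CCR9 had higher signals in the animals of high aggressiveness, against a background of 1.84% on that side, and CCL21 and CXCL12 had lower ones, against 1.38%. The median log2 difference was -0.01 over the 58 genes and 0.01 over all probe sets. The count was 5 without low-low 1, 5 without low-low 2, 1 without low-high 1 and 6 without low-high 3. Without the 3 arrays that stood apart it was 4, of which CCR9 is the only one among these 3. Over all 15999 probe sets the numbers under these 5 settings were 502, 499, 523, 503 and 591, in that order, against 515 in the main fit.

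CXCL12 was the one detectable gene among the 3. Its signals were 4102, 3120.2 and 4853 in low-low, 2904, 3843 and 2590.4 in low-high, 3300.0, 2743 and 3466 in high-low, and 2883, 2662 and 2018 in high-high. Both levels of aggressiveness overlapped, and the lowest animal was high-high 3. The log2 difference was -0.35 with a standard error of 0.15 (limma, unadjusted p = 0.0401, adjusted p = 1.00). It was -0.13 without the 3 arrays, -0.19 in males alone and -0.22 for the mean of both probe sets, of which the other gave -0.09.

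CCL21, the chemokine that draws T cells and dendritic cells towards lymphatic vessels, passed the detection threshold on 2 high-low arrays, 1 low-low, 1 low-high and no high-high array. Its signals were 165, 121 and 216 in low-low, 88.5, 194 and 176 in low-high, 241, 208 and 325 in high-low, and 46.1, 119 and 117 in high-high. The high-low and high-high animals did not overlap, while the low-low and low-high animals did. The log2 difference for aggressiveness was -0.77 with a standard error of 0.31 (limma, unadjusted p = 0.0284, adjusted p = 1.00). CCL19, which shares the receptor CCR7 with CCL21 and lies next to it in Sscrofa11.1, had a log2 difference of 0.01.

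CCR9, the receptor that directs lymphocytes to the gut, was not detected on any array. Its signals were 103, 55.4 and 34.5 in low-low, 87.4, 73.5 and 84.9 in low-high, 76.7, 58.2 and 61.4 in high-low, and 102, 122 and 95.3 in high-high. Low-low 1, at 103, exceeded 5 of the 6 animals of high aggressiveness. The log2 signal difference was 0.48 with a standard error of 0.17 (limma, unadjusted p = 0.0164, adjusted p = 1.00), and 0.75 without the 3 arrays.

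The next genes by p were TNF and IL18R1. TNF, the cytokine of activated macrophages, was 89.7, 124 and 81.0 in low-low, 117, 113 and 157 in low-high, 194, 47.8 and 79.4 in high-low, and 168, 187 and 125 in high-high. High-low 1 was the highest of all animals and high-low 2 the lowest. The log2 signal difference was 0.52 with a standard error of 0.24 (limma, unadjusted p = 0.0578, adjusted p = 1.00), and 0.34 without high-low 2. IL18R1, the receptor of IL18, was not detected on any array. Its signals were 52.6, 35.8 and 17.4 in low-low, 47.9, 58.3 and 44.8 in low-high, 50.1, 58.4 and 8.68 in high-low, and 86.6, 38.4 and 82.6 in high-high. Its log2 signal difference was 0.58 with a standard error of 0.27 (limma, unadjusted p = 0.0582, adjusted p = 1.00), and 0.35 without high-low 3.

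For 25 of the 26 detectable genes the 95% interval of the aggressiveness difference lay within a 2-fold change, the exception being CXCL14, and this held for 90.9% of all probe sets tested. No gene of the set separated the levels without overlap, against 0.0875% of all probe sets tested. The log2 ratio of the 3' to the 5' probe set of the EF1A control was 0.892 ± 0.0878 (SD, n = 6) in animals of high aggressiveness and 0.721 ± 0.0257 (SD, n = 6) in those of low aggressiveness, without overlap (exact permutation test, two-sided, p = 0.00216; adjusted over 8 such tests, 0.0173). The corresponding ratios of GAPDH and actin had adjusted p-values of 0.816 and 0.861. With the mean of the 3 ratios in the model, the log2 difference was -0.33 for CXCL12 (limma, unadjusted p = 0.0846), -0.65 for CCL21 (limma, unadjusted p = 0.0822) and 0.51 for CCR9 (limma, unadjusted p = 0.0230). Of the 3 genes, CCR9 alone then had an unadjusted p under 0.05, and the part of the EF1A ratio alone was not tested.

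The interaction asks whether the stress response difference is another at high than at low aggressiveness, and a positive value means that it is larger at high aggressiveness. Of the 58 genes, 6 had an unadjusted p under 0.05, against a background of 3.87% of all probe sets tested, and the smallest adjusted p was 0.999. The values were negative for TGFB3 and CCL21, against a background of 2.28% on that side, and positive for CCL3L1, CCL4, CCR1 and IL2RG, against 1.59%. The count was 2 without low-high 2 or low-high 3, and 3 without low-low 3, high-high 2 or high-low 3. Without the 3 arrays that stood apart it was 4, of which CCL4 is the only one among these 6. The numbers over all probe sets under these settings are not given here. CCL4, CCR1 and IL2RG are named because of their values. IL2RG was not detected on any array, and its signals ran from 58.8 to 153.

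CCL3L1 and CCL4 encode macrophage inflammatory chemokines and lie next to each other in Sscrofa11.1. CCL3L1 was 291, 332 and 255 in low-low, 234, 214 and 210.4 in low-high, 179.8, 299.9 and 239 in high-low, and 338, 282 and 238 in high-high. CCL4 was 965, 671 and 882 in low-low, 946, 719 and 794 in low-high, 786, 559.6 and 692 in high-low, and 1317, 1111 and 898 in high-high. In CCL3L1 the low-low animals lay above the low-high ones without overlap. In CCL4 the high-high animals lay above the high-low ones without overlap, while the other pair of groups overlapped. The interaction was 0.64 with a standard error of 0.27 for CCL3L1 (limma, unadjusted p = 0.0375) and 0.72 with a standard error of 0.31 for CCL4 (limma, unadjusted p = 0.0442). Whether the probe sets separate these genes from near-identical family members was not tested.

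CCL21, whose signals are given above, had an interaction of -1.22 with a standard error of 0.51 (limma, unadjusted p = 0.0375, adjusted p = 0.999). TGFB3, not detected on any array, was 106, 81.0 and 72.6 in low-low, 88.9, 125 and 117 in low-high, 157, 101 and 193 in high-low, and 75.04, 123 and 46.3 in high-high. Its interaction was -1.11 with a standard error of 0.44 (limma, unadjusted p = 0.0300, adjusted p = 0.999). It was -0.52 without the 3 arrays, and the other probe set of TGFB3 gave -0.07. CCR1, the receptor of several inflammatory chemokines, passed the detection threshold on all 3 low-low and all 3 high-high arrays and on 1 array in each of the other groups. These counts also follow the threshold of each array. High-high 1 passed at a signal of 171 with a threshold of 164, while high-low 2, at 205 with a threshold of 219, did not. For only 9 of the 26 detectable genes did the 95% interval of the interaction lie within a 2-fold difference, so the interaction was measured less precisely than either trait.

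Across the 4 groups, IL1R1 and CCL21 had an unadjusted p under 0.05, which is 2 of the 58 genes against a background of 4.69% of all probe sets tested. In the moderated F test of limma, the unadjusted p was 0.00374 for IL1R1 (adjusted p = 0.995) and 0.0234 for CCL21 (adjusted p = 1.00). For CCL21 it was 0.0753 without high-low 3, 0.0650 without high-high 1, 0.159 without the 3 arrays, 0.0762 in males alone and 0.0789 with the 3' to 5' ratio in the model. For IL1R1 it reached at most 0.0478, without the 3 arrays. Mean IL1R1 signals were 1415 ± 208 in low-high, 1735 ± 117 in low-low, 2339 ± 511 in high-low and 3166 ± 963 in high-high (SD, n = 3). Neighbours in this order overlapped except low-high and low-low, where the highest low-high animal had 1556 and the lowest low-low animal 1618. For such a separation of 3 animals from 3, the share over all probe sets is not given here. CXCL14, a chemokine made by epithelial and stromal cells, was next, with an unadjusted p of 0.0587 in limma (adjusted p = 1.00). It was 438, 178 and 299.6 in low-low, 436, 212 and 309 in low-high, 657, 395 and 949 in high-low, and 303, 399 and 278 in high-high. The highest values were those of high-low 3 and high-low 1, and without high-low 3 the p was 0.304. The other probe set of CXCL14, above the threshold on 9 arrays, gave a log2 difference for stress response of 0.07, against 0.58 for the chosen one. For the interaction it gave -1.25, against -1.01. The count of 2 became 4 without low-low 1, low-high 1, high-low 2 or high-high 3, and 5 without high-low 1 or high-low 3. Without the 3 arrays it was 6, with IL1R1 and without CCL21, and with the 3' to 5' ratio in the model it was 1, IL1R1. The numbers over all probe sets under these settings are not given here.

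**Figure D5:**
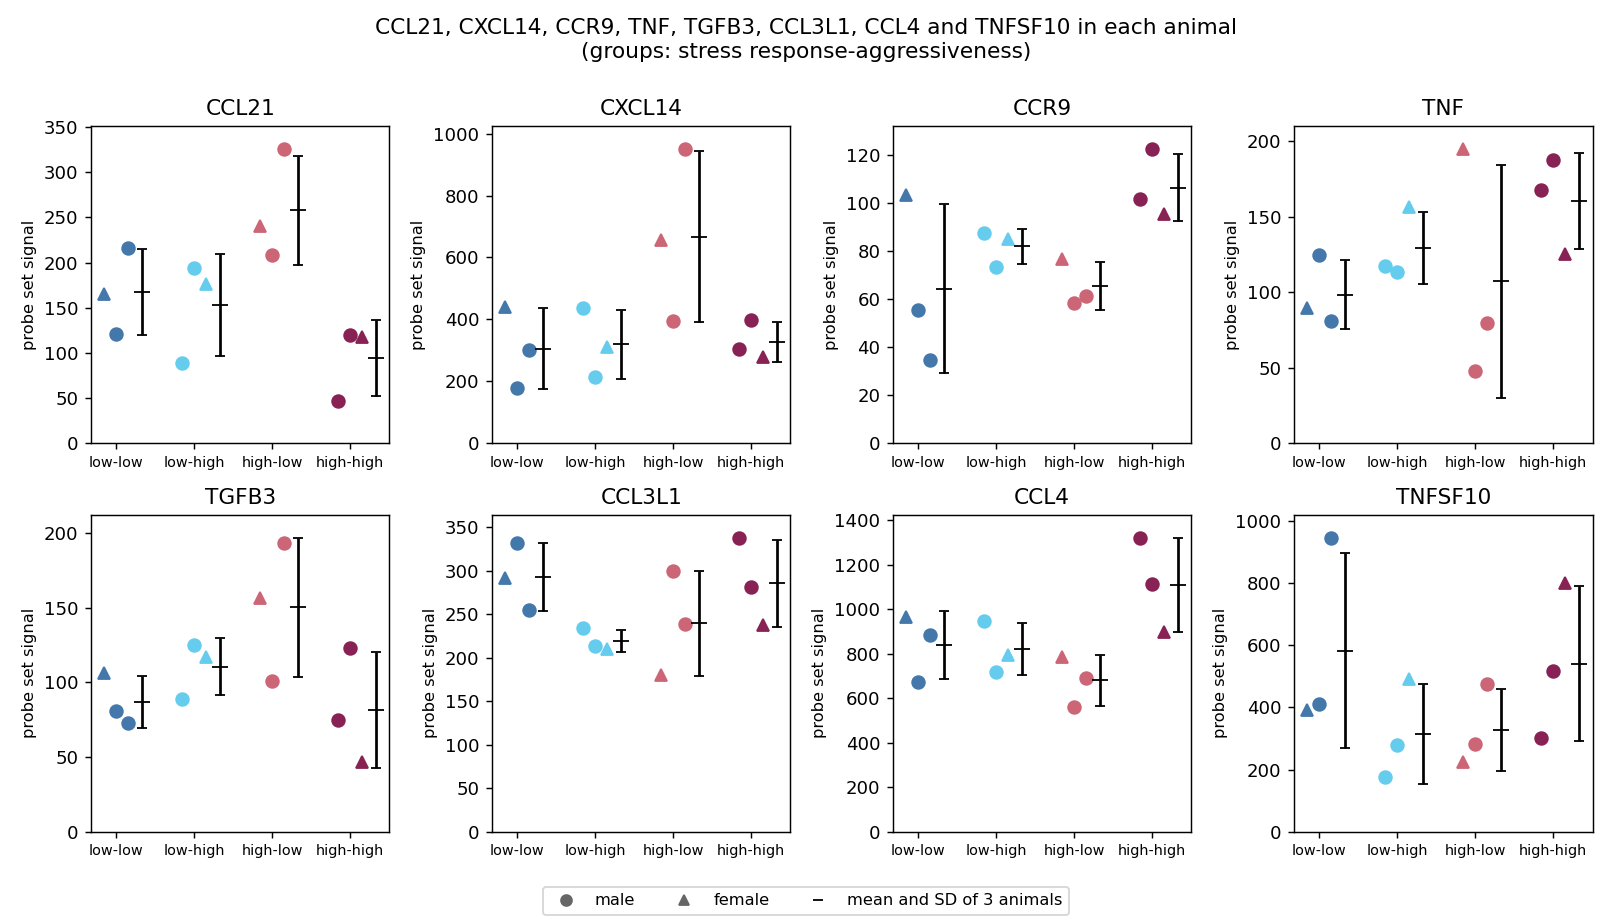
Probe set signals of CCL21, CXCL14, CCR9, TNF, TGFB3, CCL3L1, CCL4 and TNFSF10 in each animal, from 0 on a linear axis, with circles for males, triangles for females, and the mean and SD of the 3 animals of each group. For CCL21 the high-low animals lie from 208 to 325 and the high-high animals from 46.1 to 119, and TNFSF10 spans 176 to 945 with wide overlap.

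Genes that act downstream of these receptors had no adjusted call either. Of 13 tested JAK-STAT genes, through which interleukin and interferon receptors signal, 3 had an unadjusted p under 0.05 for stress response: STAT3 with a log2 difference of 0.61 and SOCS6 with 0.45, and SOCS1, an inhibitor of the pathway, with -0.56. The background for this comparison was the 8.16% given above. None of the 13 did for aggressiveness. STAT3, which carries the interleukin 6 signal, was detectable on all 12 arrays, SOCS1 on 2 and SOCS6 on 1. Of 11 tested genes of the NF-kB pathway, which TNF and interleukin 1 receptors activate, none had an unadjusted p under 0.05 for either trait, and the medians were 0.05 for stress response and -0.04 for aggressiveness. The same was found for the 5 tested genes of TGF-beta signalling. Of 7 tested cytokine genes outside the naming rule, SPP1, which encodes osteopontin, had a log2 difference of -0.89 for aggressiveness (limma, unadjusted p = 0.049, adjusted p = 1.00), 1 gene of 7 against the background of 3.22%.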

How the data were processed

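Liver RNA of 12 pigs was hybridised to the Affymetrix porcine array, 1 array per animal. The deposited values are probe set signals on a linear intensity scale, made by the authors with GCOS 1.1.1, per the submitters' processing notes; how probes were summarised is not given in the sources used here. All 12 arrays had a 2% trimmed mean of 500.2. Of 24123 probe sets, 124 controls were left out. Symbols came from the array's annotation table: 10099 probe sets had 1 symbol, 198 several and 13826 none. The symbols of all 99 chosen probe sets were also RefSeq symbols. No detection calls were used, so the threshold described in the results was set from 54 probe sets.

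The third of probe sets with the lowest mean log2 was left out (33.3%), and 15999 were tested with limma 3.58.1 in R 4.3.3 on log2(signal + 16): stress response, aggressiveness and sex as terms (8 residual degrees of freedom), and, with 7, the interaction and the F test over 4 groups. P-values were adjusted over the 15999 by Benjamini and Hochberg's method and called under 0.05. They set each difference against the variation left between animals. With 1 array per animal, variation of animals and of arrays cannot be told apart. RNA quality was compared by exact permutation tests (SciPy 1.17.1). The fits were tested on simulated data.

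Members, lists and tests were chosen with earlier results of these data known. Genes named with values in each animal or by range were the 5 with the highest mean signal, the 5 with the smallest p for each trait, the 3 for the interaction and the F test, and a fixed list of 23 immune genes, of which 16 were measured, 27 genes in all; others were chosen after their values were seen. No sequence was used. Tried as alternatives were 24 settings: filters, scalings, added constants, models, males alone, the mean of a gene's probe sets, each animal left out and, added after seeing the data, 3 arrays left out and a 3' to 5' ratio as covariate. The detection threshold had alternatives of its own.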

Additional observations from a re-analysis of the deposited data

Results flagged for a closer look

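In IFNAR1, high-low 3 stood apart from the other animals of low aggressiveness: its signal was 425, while the other 5 lay between 197 and 236. The gap to the nearest animal was 0.828 of the range of the 6, above Dixon's 95% critical value for 6 samples. Of 56 groups of 6 animals examined in this way, 1 exceeded its critical value, and chance alone exceeds it in about 1 of 20 groups. The groups share animals, so they are not independent, and they did not cover every detectable gene. In CXCL9, which was not among them, low-low 3 had 1070.1, while the other 5 animals of low aggressiveness lay between 245 and 415.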

How the results depend on the processing

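No gene of the set passed an adjusted p under 0.05 in any of the 4 comparisons under any of the 24 settings, and the smallest adjusted p of any member was 0.332. The 13 fitted member differences kept their direction in all 308 values computed. These 13 had the smallest p in the same data, and the settings share most of their arrays, so a kept direction is not independent support. Beside the values given with each gene, a constant of 64 in place of 16 gave log2 signal differences for aggressiveness of 0.31 for CCR9 and 0.30 for IL18R1, and the mean over probe sets gave an interaction of -0.59 for TGFB3. Genes too dim for the filter of a setting gave no value there. The number of detectable genes, 26, was 60 above the median of the silent probe sets, 9 above their 99th percentile, 52 above the lowest 33.3% of all probe sets, 17 where all 12 arrays were required and 36 without MBP and GHRHR in the list; with each animal left out it was 25 to 26. Counts at an unadjusted p under 0.05 ranged with an animal left out from 2 to 7 for stress response, 1 to 6 for aggressiveness, 2 to 6 for the interaction and 2 to 5 for the 4 groups, and over the other settings from 3 to 6, 3 to 5, 3 to 9 and 1 to 6. With an animal left out, the counts over all 15999 probe sets ranged from 926 to 1471 for stress response and from 478 to 676 for aggressiveness. Scaling changed the split for stress response: of all probe sets with an unadjusted p under 0.05, 61.7% were higher with a high stress response as deposited, 51.9% after quantile normalization and 44.4% after centring on the median, and 41, 35 and 36 of the 58 members had a difference above 0. The cause was not tested. No paired analysis was possible because the labels carry no numbers that pair animals. Signals below the detection threshold on every array limit what can be said of 45 of the 80 genes.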

Other observations

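Of the 80 genes, 16 had several probe sets. For 7 of these the probe sets fell into different detection classes, and for IFNAR2, IL1R1 and IL4R 1 probe set was detectable while another was not detected on any array. TNFRSF12A, the receptor of the TNF ligand TWEAK, had a probe set above the threshold on 5 arrays and another on 1, with log2 signal differences for stress response of 0.47 and 0.93.

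Among members that are neighbours in Sscrofa11.1 with no gene between them there were 10 pairs. The pair IL2 and IL21, cytokines of T cells that were not detected on any array, had log2 signal differences for stress response of 0.52 and 0.05.

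NFKBIB, an inhibitor of NF-kB detectable on all 12 arrays, had an interaction of -2.46 with a standard error of 0.67 (limma, unadjusted p = 0.004, adjusted p = 0.999). It was chosen after its value was seen, and no gene of its list passed the adjusted threshold.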
